A study of Drosophila melanogaster with 6 samples.

Results

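The respiratory chain and the ATP synthase were followed at the RNA level in larval salivary glands (SGs). Members were the protein-coding genes whose symbols begin with ND- (complex I), Sdh (complex II), UQCR- (complex III), COX (complex IV), ATPsyn (the ATP synthase, complex V) or mt: (encoded in mitochondrial DNA). This rule found 100 of the 13930 protein-coding genes, 87 of them nuclear and 13 mitochondrial. Of the nuclear members, 63 were subunits or their assembly proteins and 24 were paralogs, here those whose symbol is the name of another subunit followed by L, in some with a number (*levy*, *cype* and *sun* being the counterparts of *COX6AL* and *COX6AL2*, of *COX6CL* and of *ATPsynepsilonL*). SGs of *de2f1b* larvae of the third instar (replicates 1 to 4, n = 4 libraries) were compared with those of *w1118* controls (replicates 1 and 4, n = 2 libraries), all raised at 25 °C. The *de2f1b* allele removes an alternatively spliced form of the cell cycle transcription factor dE2F1, it is carried in the whole animal, and the allelic combination used for sequencing is not given in the sources used here. The labels call the libraries biological replicates without saying which came from separate larvae or crosses, so that p-values measure the spread between these libraries.

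Complexes I, III and IV pump protons across the inner mitochondrial membrane while electrons pass from NADH to oxygen, complex II feeds electrons from succinate without pumping, and the ATP synthase uses the proton gradient to make ATP. Complex II is encoded wholly by nuclear genes, whereas the others are built from the products of both genomes. Mitochondrial genes are transcribed by an RNA polymerase of their own from many copies of a small circular genome, and their products form the catalytic core of the proton pumps. The larval SG is a secretory tissue with very large polyploid cells that makes the glue proteins of the puparium.

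Between 56495956 and 94907006 reads on genes were recovered per library from the deposited normalized counts, in which the authors had divided each library by its size factor. All 11 SG markers were detected, with more than 3 reads, in every library. Markers of other tissues were present too and differed among libraries. The largest sums were those of 6 fat body markers, all detected in every library. They were at 4406061 and 4814504 in *w1118* and at 4589114, 4347773, 2936471 and 5781039 in *de2f1b* replicates 1 to 4. The ring gland gene *phm* was at 4061 and 4865 in *de2f1b* replicates 3 and 4 and at most 10.7 elsewhere. *sad*, *nvd*, *spok*, *dib*, *GstE14* and *jhamt* were also highest there. *sro*, from the same list of 8, was not, at 4132 and 6428 in *w1118* and at 7363, 8605, 4780 and 6197 in *de2f1b* replicates 1 to 4. All 8 were detected in *de2f1b* replicates 3 and 4, and 4 to 6 of them in each other library. Of the testis markers, 12 of 12 were detected in *de2f1b* replicate 3 and at most 4 elsewhere. The summed level of 8 muscle markers ran from 25222 in *w1118* replicate 4 to 154914 in *de2f1b* replicate 4. *E2f1* itself was at 12544 and 18666 in *w1118* and between 7190 and 12895 in *de2f1b* libraries (log2 fold change −0.66, adjusted p = 0.23, limma). Counts per gene do not resolve the isoform that the allele removes, so this is no check of the labels.

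No member passed the test. Of the 100 members, 80 reached a normalized count of 10 in 2 or more libraries and were tested with limma on log2(normalized count + 1). Fold changes are given on that scale unless another fit or the alternatives are named. At an adjusted p under 0.05, 0 members were higher and 0 were lower, whereas 3.17% of all 11099 genes tested were called higher and 1.07% were called lower. At an unadjusted p under 0.05 there were 3 members (*SdhBL* higher, *SdhA* and *mt:ATPase8* lower), against 21.6% of all genes tested. In edgeR on the recovered reads 0 members were called, and in DESeq2 1 was called (*mt:ATPase8*, lower). The values of *de2f1b* libraries lay above both controls in 4 members and below both in 7, while over all genes tested this held for 17.4% and 16.0%. Of the 4, 2 were mitochondrial genes and 2 were the paralogs *SdhBL* and *COX4L*. Both paralogs reached a normalized count of 10 in *de2f1b* libraries only, so that the filter itself favored values above the controls. The unadjusted p of *SdhBL* has the same limit.

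The nuclear subunits other than paralogs had small differences. Their 61 tested genes had log2 fold changes between −0.53 and 0.31 with a median of −0.11, and 50 of them were on the lower side, beside a median of 0.02 over all genes tested. This leaning rested on a few libraries. Without *de2f1b* replicate 3 the median was −0.01 with 33 of 61 lower, and without *w1118* replicate 4 it was −0.03 with 38 lower. When each library was rescaled to an equal sum over all genes, over nuclear genes or over those outside the top 50, the median turned to between 0.04 and 0.09, with that of all genes at 0.17 to 0.22, so that relative to all genes it stayed at −0.14 to −0.13. Under quantile normalization it was −0.04, above the −0.10 of all genes. The distance from all genes was also smaller among genes with a mean of at least 100 (nuclear subunits −0.11, all genes −0.08), without both libraries that held ring gland markers (−0.08 and −0.02) and with the replicate block (−0.03 and 0.01).

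**Figure D1:**
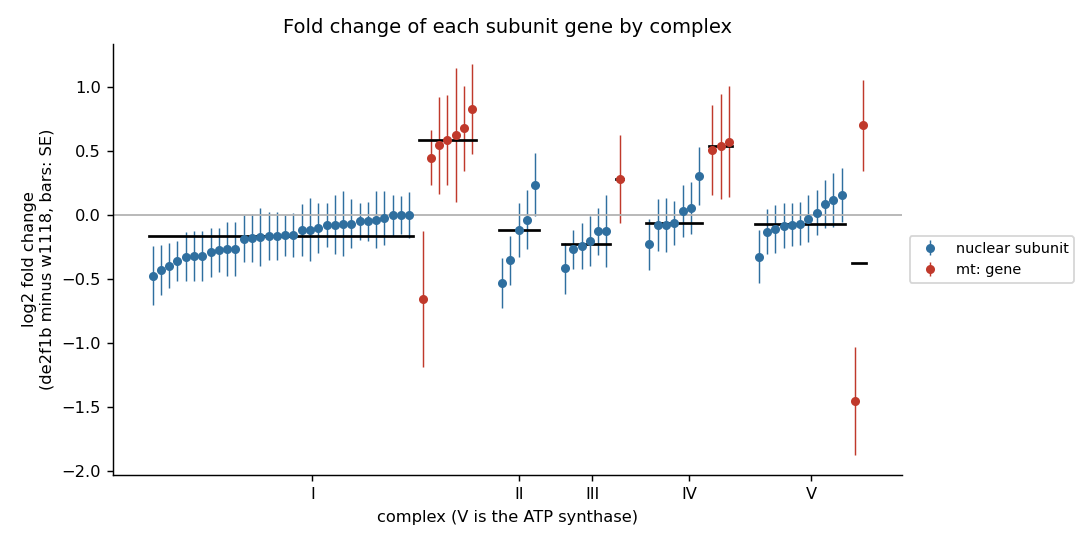
Log2 fold change (*de2f1b* minus *w1118*, vertical axis) of each tested nuclear subunit gene (blue, 61) and mitochondrial gene (red, 13) by complex, with standard errors as bars and the median of each group as a black line. Nuclear genes lie between −0.53 and 0.31, most mitochondrial genes lie above them, and *mt:ATPase8* at −1.45 and *mt:ND6* at −0.66 lie below.

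Complex I is the largest of the complexes and takes electrons from NADH. Of its 34 nuclear members 32 were tested, 29 of which had a negative log2 fold change (median −0.16). In 3 of the 32, *ND-18*, *ND-24* and *ND-39*, all *de2f1b* values were below both controls, a smaller share than the 16.0% of all genes tested. *ND-18* was at 3472 and 4526 in *w1118* and at 2796, 3171, 2464 and 3443 in *de2f1b* replicates 1 to 4 (log2 fold change −0.43, adjusted p = 0.259, limma). The gap between the lower control and the highest mutant library was thus narrow. *ND-24*, which belongs to the arm that oxidizes NADH, was at 2619 and 3076 in *w1118* and at 2167, 2481, 1961 and 2294 in *de2f1b* (log2 fold change −0.36). *ND-39* was at 7569 and 9629 against 6270, 7181, 5543 and 7132 (log2 fold change −0.39).

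The largest difference among the nuclear members of complex I was that of *ND-19*, an accessory subunit, at 2073 and 2818 in *w1118* and 1646, 2083, 1348 and 1996 in *de2f1b* (log2 fold change −0.47, adjusted p = 0.299, limma). Its groups overlapped, since *de2f1b* replicate 2 lay just above *w1118* replicate 1. *ND-B22* stood at the other end, with 2487 and 2840 in *w1118* and 2625, 3144, 2179 and 2784 in *de2f1b*, a log2 fold change of 0.00. About 26.1% of its exon bases overlap a gene on the opposite strand, and whether the counting used strand is not given in the sources used here. The core subunits *ND-75* (−0.16), *ND-51* (0.00), *ND-49* (−0.05), *ND-30* (−0.27), *ND-23* (−0.32) and *ND-20* (−0.05) differed in the log2 fold change but none passed the test. *ND-MNLL* was listed at 0 in all 6 libraries, and all of its exon bases lie within *CG45089* on the same strand. *ND-B8* had a normalized count of 27.1 in *de2f1b* replicate 3 and at most 1.33 elsewhere, the pattern of the paralogs described further on, so that neither gene was tested.

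Complex II oxidizes succinate and is shared with the citric acid cycle. *SdhA* (chromosome 2R, 19391863 to 19395971 in BDGP6.54, minus strand), its flavoprotein subunit, had the most negative value of the 61 nuclear genes. It was at 6628 and 9693 in *w1118* and at 6470, 5557, 5337 and 4959 in *de2f1b* replicates 1 to 4. All mutant libraries were below both controls, although replicate 1 was close to the lower control. The log2 fold change of −0.53 (standard error 0.20, unadjusted p = 0.0339, adjusted p = 0.195, limma) became −0.26 without *w1118* replicate 4 and −0.80 without *w1118* replicate 1.

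The other members of complex II did not share this value. *SdhB*, the iron-sulfur subunit, was at 5187 and 6428 in *w1118* and 5869, 7297, 4299 and 5486 in *de2f1b* (log2 fold change −0.03), with a sign that changed under several alternatives. *SdhC*, a membrane anchor, was at 4148 and 4999 against 3672, 4108, 2811 and 3826 (log2 fold change −0.35, no overlap), and *SdhD*, the other anchor, had a log2 fold change of −0.11. *Sdhaf3*, an assembly factor that the rule includes by its name, was at 264 and 296 against 297, 371, 273 and 396 (log2 fold change 0.24).

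All 6 nuclear members of complex III, which passes electrons from ubiquinol to cytochrome c, had negative log2 fold changes (−0.42 to −0.12), and in each the lowest library was *de2f1b* replicate 3. *UQCR-11* was at 5179 and 4796 in *w1118* and at 3247, 3866, 3199 and 4854 in *de2f1b*, so that replicate 4 lay between the controls while the other mutant libraries lay below them (log2 fold change −0.42, adjusted p = 0.291, limma). The core protein gene *UQCR-C1* was at 10289 and 11735 against 8577, 9946, 8184 and 9984 (log2 fold change −0.27, no overlap). *UQCR-14* was at 4637 and 5885 against 4507, 4989, 3619 and 5222, and all of its exon bases overlap *CG32576* on the opposite strand, so that its reads are uncertain. *UQCR-6.4*, at 1550 and 2134 against 1509, 2203, 1203 and 1940, overlaps *POSH* in 40.5% of its exon bases, and the sign of its small difference (−0.12) changed under 6 alternatives.

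Nuclear members of complex IV, the cytochrome c oxidase, and of the ATP synthase were nearer to the controls, with medians of −0.06 (7 genes) and −0.07 (11 genes). *COX7A* was at 7851 and 10151 in *w1118* and at 11247, 12767, 8286 and 12538 in *de2f1b*, the largest positive value of the 61 genes (log2 fold change 0.31, adjusted p = 0.458, limma). Only replicate 3 fell within the range of the controls. *COX5A* was at 8574 and 9873 against 7520, 8611, 6205 and 9519 (log2 fold change −0.23).

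Among the nuclear members of the ATP synthase, *ATPsynCF6*, a stalk subunit, had the lowest value (5461 and 7093 against 4675, 5626, 4016 and 5806, log2 fold change −0.32). *ATPsynG*, a subunit of the membrane part, had the highest (8208 and 7963 against 8347, 9753, 7102 and 11535, log2 fold change 0.16). The catalytic *ATPsynbeta* was at 35612 and 30668 in *w1118* and at 33227, 34553, 31638 and 42328 in *de2f1b* (log2 fold change 0.09). Its partner *blw*, the alpha subunit, which lies outside the naming rule, had a log2 fold change of −0.01. None of these genes passed the test.

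On the deposited normalized counts, the nuclear genes moved together from library to library more than between genotypes. In *de2f1b* replicate 3 all 61 were below the *w1118* mean (−0.84 to −0.03 on the log2 scale), and it was the lowest library for 54 of 61 (88.5%), against 20.3% of all genes tested. The highest library was *de2f1b* replicate 4 for 29 genes and *w1118* replicate 4 for 26. As a share of all reads on genes, however, the nuclear members, paralogs included, held 0.541% in *de2f1b* replicate 3. This was above both controls (0.532% and 0.433%), so that the low position of replicate 3 depends on the scaling between libraries. Replicate 3 was also the library with all testis markers and, with replicate 4, one of those in which all 8 ring gland markers were detected. The summed fat body markers were lowest in *de2f1b* replicate 3 (2936471) and highest in *de2f1b* replicate 4 (5781039). The part of RNA from these tissues in the nuclear values was not tested.

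The mitochondrial genes leaned to the other side. Of the 13, all of which were tested, 11 had positive log2 fold changes and the median was 0.55. None was called by limma (lowest adjusted p = 0.122). The 10 genes with a mean of at least 1000 were all on the higher side (0.28 to 0.83), and the 3 genes under 1000 had values of 0.63, −0.66 and −1.45. This result depended on the controls, which differed from each other by more than the genotypes did. *w1118* replicate 4 was below *w1118* replicate 1 in 13 of 13 genes, with a median difference of −0.79, and it was the lowest of all libraries in 11 (84.6%, against 26.4% of all genes tested). Without it the median was 0.19 with 9 of 13 genes higher, and without *w1118* replicate 1 it was 0.96.

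**Figure D2:**
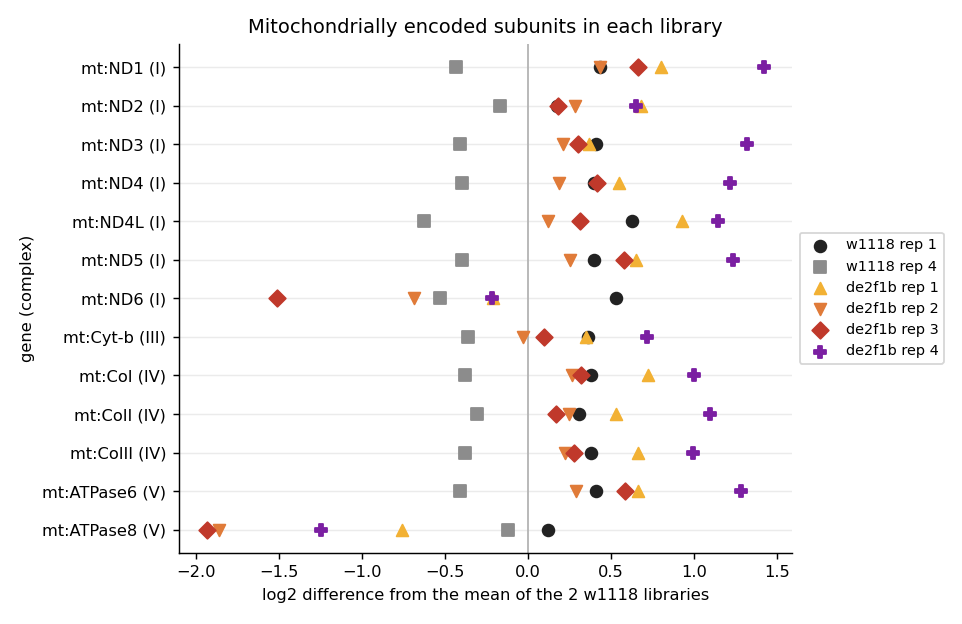
Log2 difference of each library from the mean of both *w1118* libraries (horizontal axis) for the 13 mitochondrial genes, with the complex in brackets and a symbol for each library. *w1118* replicate 4 is the lowest library in 11 genes and *de2f1b* replicate 4 the highest in 10, while *mt:ATPase8* has all 4 mutant libraries below both controls.

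Complex I has 7 mitochondrial subunits, which form its membrane arm. *mt:ND1* (bases 11721 to 12659 of the mitochondrial genome, minus strand) was at 39193 and 21532 in *w1118* and at 50647, 39293, 45975 and 77968 in *de2f1b* replicates 1 to 4. All mutant libraries were above both controls, but replicate 2 exceeded *w1118* replicate 1 by very little. This log2 difference, 0.83 with a standard error of 0.36 (adjusted p = 0.238, limma), was the largest positive value of the 13. *mt:ND2* did not overlap either, with 1031 and 812 in *w1118* and 1466, 1115, 1039 and 1440 in *de2f1b* (log2 fold change 0.45), and here replicate 3 was just above the higher control.

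In the remaining genes of complex I the groups overlapped. *mt:ND4* was at 37904 and 21780 against 41962, 32706, 38326 and 66753 (log2 fold change 0.59). *mt:ND5* was at 31917 and 18445 against 38052, 28914, 36279 and 57076 (log2 fold change 0.68). *mt:ND3* was at 13211 and 7507 against 12825, 11513, 12275 and 24874 (log2 fold change 0.55). In all 3 the highest library was *de2f1b* replicate 4 and the lowest *w1118* replicate 4. *mt:ND4L*, which shares 1 base with *mt:ND4*, was at only 80.0 and 33.0 against 98.7, 56.2, 64.2 and 114.95 (log2 fold change 0.63), and *mt:ND6* at 163 and 77.9 against 97.4, 69.9, 38.9 and 97.0 (log2 fold change −0.66).

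*mt:Cyt-b*, the cytochrome b of complex III, was at 190339 and 115357 in *w1118* and at 188453, 145218, 158571 and 243281 in *de2f1b*. Its log2 fold change of 0.28 was the smallest of the positive ones and was −0.08 without *w1118* replicate 4. The 3 catalytic subunits of complex IV were the most abundant members. *mt:CoI* was at 488749 and 288710 in *w1118* and at 620010, 450377, 468162 and 751132 in *de2f1b* (log2 fold change 0.58, adjusted p = 0.472, limma). *mt:CoII* was at 119741 and 78059 against 139485, 114609, 108816 and 206623 (log2 fold change 0.51). *mt:CoIII* was at 368159 and 217354 against 448560, 330454, 341987 and 564309 (log2 fold change 0.54). In each of them *de2f1b* replicates 2 and 3 lay between the controls.

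The ATP synthase has 2 mitochondrial subunits, encoded by neighboring genes that share 7 bases, and their counts per gene parted. *mt:ATPase6* was at 61429 and 34836 in *w1118* and at 73099, 56516, 69337 and 112779 in *de2f1b* (log2 fold change 0.70, adjusted p = 0.307, limma). *mt:ATPase8* (bases 3907 to 4068) was at 252 and 213 in *w1118* and at 136, 63.0, 59.7 and 97.0 in *de2f1b*, all below both controls (log2 fold change −1.45, standard error 0.43, unadjusted p = 0.0122, adjusted p = 0.122, limma). It was lower in each of 21 alternative fits, between −2.04 and −1.004, and passed in DESeq2 only (−1.38, adjusted p = 0.0383).

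For every 1000 reads on *mt:ATPase6*, those on *mt:ATPase8* numbered 4.10 and 6.10 in *w1118* and 1.86, 1.11, 0.861 and 0.860 in *de2f1b*, a ratio within the library that no scaling between libraries alters. These rest on 302 and 232 reads in *w1118* and on 46 to 124 reads in *de2f1b*. *mt:ATPase8* is the shortest of the 13 genes, with 162 bases, and how the counting treated fragments that span several genes is not given in the sources used here. The ratio was formed after the values of both genes had been seen. For every 1000 reads on *mt:Cyt-b*, those on *mt:ND6* numbered 0.859 and 0.675 in *w1118* and 0.517, 0.481, 0.245 and 0.399 in *de2f1b*, likewise without overlap. For every 1000 on *mt:ND4*, those on *mt:ND4L* numbered 2.11 and 1.52 against 2.35, 1.72, 1.68 and 1.72, with overlap. Whether the genes of these pairs were counted from separate or shared transcripts was not tested.

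The ribosomal RNAs of the mitochondrion likewise leaned to opposite sides, and neither passed the test. *mt:lrRNA*, of the large subunit, was at 2848077 and 1869090 in *w1118* and at 3192493, 2583319, 2674064 and 4475284 in *de2f1b* (log2 fold change 0.45, adjusted p = 0.751, limma). *mt:srRNA*, of the small subunit, was at 2256 and 2594 against 1611, 1203, 1524 and 1890 (log2 fold change −0.65, adjusted p = 0.142, limma), with no overlap between the groups. Mitochondrial tRNAs held at most 0.000138% of the reads. Whether the libraries were made from poly(A) RNA or by removing ribosomal RNA is not given in the sources used here.

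Nuclear and mitochondrial members were then set side by side within each library, relative to the *w1118* mean. The median of the 13 mitochondrial genes was 0.40 in *w1118* replicate 1, −0.40 in *w1118* replicate 4, and 0.65, 0.22, 0.30 and 1.10 in *de2f1b* replicates 1 to 4. The median of the 67 tested nuclear genes, paralogs included, was −0.10 and 0.10 in the controls and −0.18, 0.03, −0.42 and 0.08 in the mutant libraries. The difference between these medians was 0.49 and −0.49 in *w1118* and 0.83, 0.20, 0.72 and 1.01 in *de2f1b*. Replicate 2 therefore lay between the controls, and the groups overlapped. On the deposited normalized counts, both groups differed in opposite directions between the 2 controls. Replicate 4 was the higher for 53 of 61 nuclear subunits and for 0 of 13 mitochondrial genes. As shares of all reads on genes, however, both were lower in *w1118* replicate 4. Nuclear members held 0.532% in replicate 1 and 0.433% in replicate 4, and mitochondrial genes 2.07% and 0.925%.

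**Figure D3:**
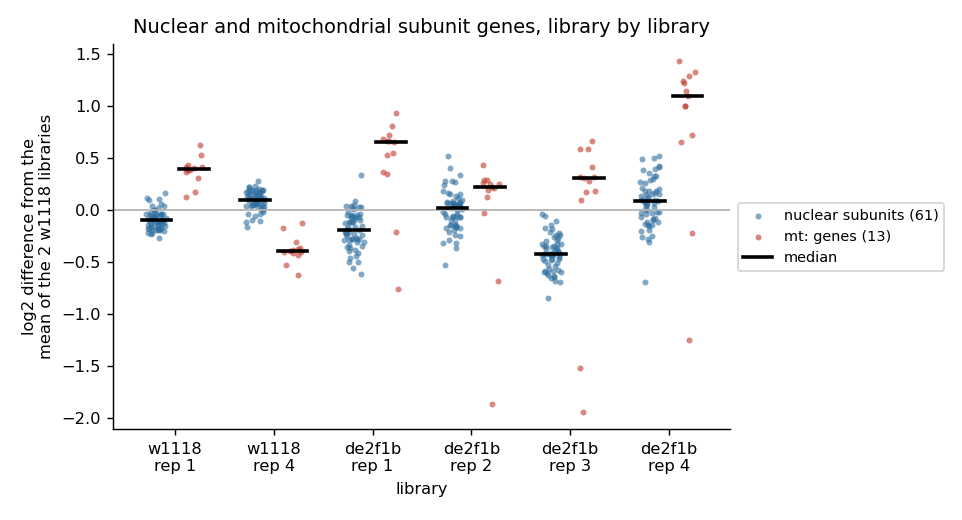
Log2 difference from the mean of both *w1118* libraries (vertical axis) of 61 nuclear subunit genes (blue) and 13 mitochondrial genes (red) in each library, with medians as black lines. On the deposited normalized counts, the nuclear genes are all below 0 in *de2f1b* replicate 3. The mitochondrial median is −0.40 in *w1118* replicate 4 and 1.10 in *de2f1b* replicate 4.

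As shares of all reads on genes, the 13 mitochondrial genes held 2.07% and 0.925% in *w1118* and 2.14%, 1.54%, 2.42% and 3.12% in *de2f1b* replicates 1 to 4. The 95% Wilson interval was 0.923% to 0.927% in *w1118* replicate 4, and such intervals cover counting error only. The nuclear members held 0.532% and 0.433% in *w1118* and 0.430%, 0.460%, 0.541% and 0.584% in *de2f1b*. Reads on mitochondrial genes were thus 3.89 and 2.13 times those on nuclear members in *w1118*, and 4.98, 3.35, 4.47 and 5.35 times in *de2f1b*. Replicate 2 again fell between the controls.

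Other values were set beside the mitochondrial level and followed its order only in part. The summed muscle markers were at 48806 and 25222 in *w1118* and at 55765, 44557, 90485 and 154914 in *de2f1b*, so that the lowest and the highest library were the same as for the mitochondrial genes. *Mhc*, the myosin heavy chain of muscle, was at 8467 and 2074 against 5605, 5530, 15258 and 30584. All 8 muscle markers were detected in every library. *bt*, *up*, *Act57B*, *Tm2* and *Mlc2* had the same lowest and highest library as *Mhc*, but *TpnC73F* and *sls* did not. *TpnC73F* was at 4149 and 4056 in *w1118* and at 6633, 3871, 5504 and 5205 in *de2f1b* replicates 1 to 4. *sls* was at 5317 and 6196 against 5609, 5493, 6703 and 7677. The glue genes, which SG cells make in very large amounts, took 15.3% and 22.1% of the reads in *w1118* and 21.3%, 23.6%, 14.7% and 14.2% in *de2f1b*. The part of muscle RNA or of the glue share in the mitochondrial values was not tested, and in whole glands fewer cells of a type and less RNA per cell cannot be told apart.

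The levels of the members spanned a wide range that followed the genome and the complex. Per kilobase of exon, the mean normalized count over the 6 libraries was 479684 for *mt:CoIII*, 332806 for *mt:CoI*, 186699 for *mt:CoII*, 152627 for *mt:Cyt-b* and 100740 for *mt:ATPase6*. The complex I genes ranged from 48741 for *mt:ND1* to 173 for *mt:ND6*. Counts per kilobase for genes of a single small genome thus differed by more than those of any nuclear complex, untested genes aside. *mt:ND6* ends at base 10495 and *mt:Cyt-b* begins at base 10499 on the same strand. How the counting treated fragments that span several genes is not given in the sources used here. These are counts per gene, from which levels of separate transcripts cannot be read. Nuclear subunits had a median of 3760 per kilobase. It was 10758 in complex V, 6852 in complex IV, 4324 in complex II, 4143 in complex III and 3091 in complex I.

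Among the nuclear genes *ND-MLRQ* (18883), *ATPsynF* (18768), *ATPsynC* (15296) and *COX7A* (15026) had the highest levels per kilobase. The mammalian counterpart of *ND-MLRQ* is now counted among the subunits of complex IV. *ATPsynF* was at 10340 and 11288 in *w1118* and at 11044, 13117, 9132 and 14334 in *de2f1b* (log2 fold change 0.12), and *ND-MLRQ* had a log2 fold change of −0.07. Ranked among 9861 protein-coding genes tested, the nuclear subunits had a median percentile of 90.8 in level per kilobase and the mitochondrial genes one of 98.1.

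The 24 paralogs behaved as a separate group. In *Drosophila* many such duplicated genes of the respiratory chain are known for expression in the testis. Of the 24, 23 were highest in *de2f1b* replicate 3, 12 had no read in any other library, and 15 had at most 3 reads in every other library. The normalized counts in replicate 3 ran from 13.6 to 358 with a median of 80.5. Only 6 passed the filter on low values, *COX6AL* and *COX7CL* only with the help of replicate 3, and so no count over these alone is given. *COX6AL*, *COX7CL*, *SdhBL* and *COX4L* reached a normalized count of 10 in *de2f1b* libraries only, so that the filter favored values above the controls.

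**Figure D4:**
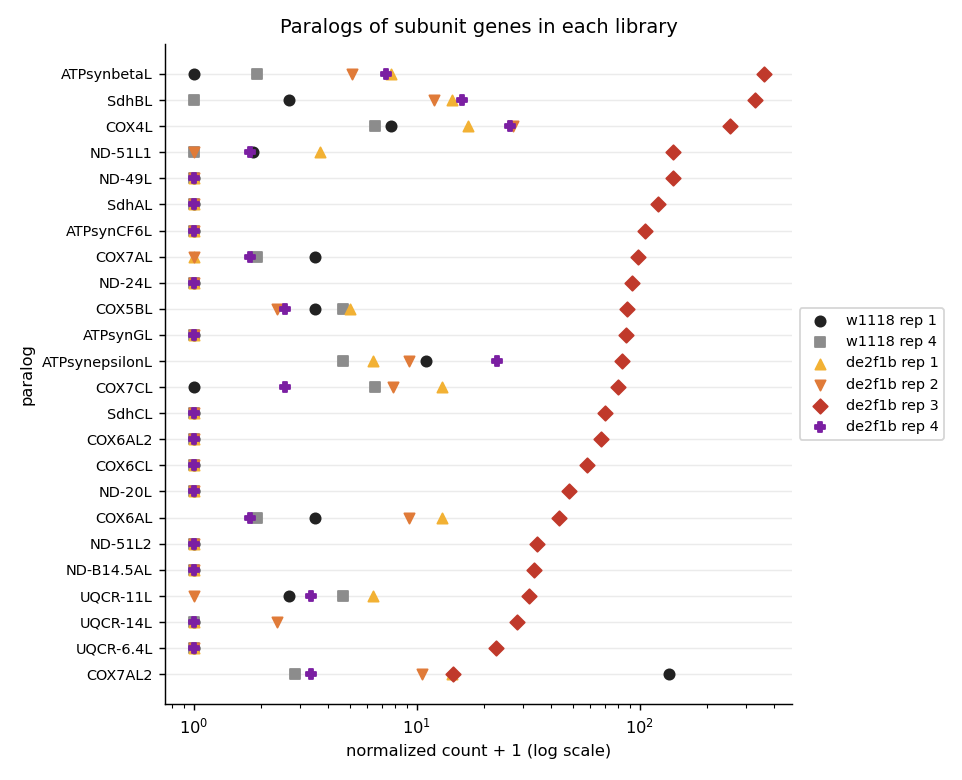
Normalized count plus 1 on a log scale (horizontal axis) of 24 paralogs in each library, ordered by their level in *de2f1b* replicate 3. That library (red diamonds) has the highest value in 23 paralogs, between 21.7 and 358, and *COX7AL2* is highest in *w1118* replicate 1 at 134.2.

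The most abundant was *ATPsynbetaL*, a relative of the catalytic ATP synthase subunit, at 0 and 0.917 in *w1118* and at 6.67, 4.11, 358 and 6.26 in *de2f1b* replicates 1 to 4. *SdhBL* was at 1.67 and 0 against 13.3, 10.96, 327 and 14.9, and lay above the controls in every mutant library (log2 fold change 4.23, standard error 1.496, adjusted p = 0.177, limma). *COX4L* was at 6.67 and 5.50 against 16.0, 26.0, 251 and 25.0 (log2 fold change 2.56), again without overlap. *SdhBL* and *COX4L* entered the test through the mutant libraries, so their lack of overlap is no support for a difference. Outside replicate 3 the levels of these 3 genes were at most 26.0. *COX7CL* was at 0 and 5.50 against 12.0, 6.85, 78.7 and 1.56, and *ATPsynepsilonL* at 10.01 and 3.67 against 5.34, 8.22, 82.3 and 21.9. *COX7AL2* was the exception, at 134.2 in *w1118* replicate 1, 1.83 in *w1118* replicate 4 and 13.3, 9.59, 13.6 and 2.35 in *de2f1b*.

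Within replicate 3 each paralog reached only 0.164% to 7.61% of the normalized count of the gene it resembles, with a median of 1.85%, so that paralogs added little to the total of any subunit. The 24 summed to 163 and 26.6 in *w1118* and 90.7, 76.7, 2402 and 78.2 in *de2f1b*. Summed testis markers followed the same libraries, at 72.5 and 52.2 in *w1118* and 185, 210, 5267 and 118 in *de2f1b*. The 12 markers included *dj* and *Mst84Da*, which had no reads outside replicate 3. The testis cytochrome c gene *Cyt-c-d* was at 280 in replicate 3 and at most 10.7 elsewhere. The part of testis RNA in the values of paralogs was not tested.

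The paralogs also differed from the subunits in gene structure, as annotated in BDGP6.54. Of the 24 paralogs 9 had a single exon block, against 2 of the 63 other nuclear members, and 17 lay on another chromosome than the gene they resemble. *SdhBL* was the only paralog on the X chromosome, which holds 12 of the 63 other nuclear members, and all 5 paralogs whose counterpart is X-linked lay on an autosome. These are descriptions of the annotation and do not bear on the genotype.

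Genes of the same pathway with other symbols included some that passed the test. Among 14 subunits and carriers, 1 rose and 1 fell, where 3.17% of all genes tested were called higher and 1.07% lower. *Cyt-c-p*, the cytochrome c that carries electrons from complex III to complex IV in most tissues, was at 6474 and 7245 in *w1118* (6860 ± 545, SD, n = 2) and at 3176, 3666, 2697 and 3287 in *de2f1b* (3206 ± 399, SD, n = 4). Every mutant library was far below both controls. *Cyt-c-p* fell by 1.10 on the log2 scale (standard error 0.16, adjusted p = 0.0194, limma) and had values between −1.18 and −0.90 in 21 alternatives. The call was lost without *de2f1b* replicate 1 (adjusted p = 0.0726, limma), without both libraries that held ring gland markers (0.0711), and with the replicate block (0.388). It was also lost without either *w1118* library, which leaves a single control. The block called only 5 genes higher and 2 lower over all genes tested, so that a call lost under it says little of any single gene.

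*Bmcp*, a carrier of the mitochondrial uncoupling protein family, was at 611 and 694 in *w1118* and at 1425, 1520, 1138 and 1351 in *de2f1b*, again with a wide gap. It rose by 1.05 on the log2 scale (standard error 0.18, adjusted p = 0.0293, limma). The call was lost in 8 of 21 alternatives, among them those without *w1118* replicate 4 (adjusted p = 0.183, limma), *w1118* replicate 1 (0.138) or *de2f1b* replicates 1 (0.0974), 2 (0.0824) or 4 (0.0693), and that with the replicate block (0.447). *Cyt-c1*, the cytochrome of complex III that hands electrons to *Cyt-c-p*, was at 5255 and 5854 against 3971, 4324, 3606 and 5153 (log2 fold change −0.39, adjusted p = 0.259, limma). The other subunits *RFeSP* (−0.15), *ox* (−0.12), *levy* (−0.25), *cype* (0.11) and *sun* (0.00) stayed within −0.25 to 0.11. The adenine nucleotide carrier *sesB* had a log2 fold change of −0.08.

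**Figure D5:**
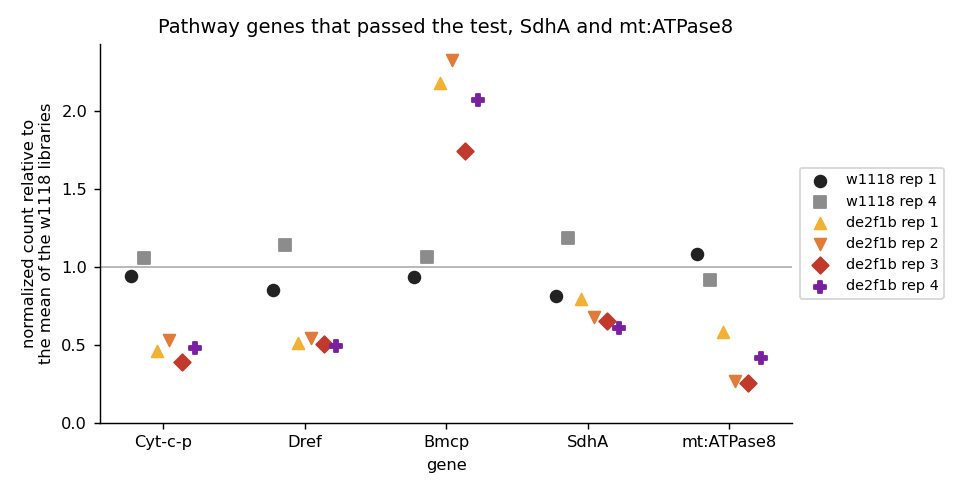
Normalized count in each library relative to the mean of both *w1118* libraries (vertical axis, from 0) for *Cyt-c-p*, *Dref* and *Bmcp*, which passed the test, and for *SdhA* and *mt:ATPase8*, which did not. The 4 mutant libraries lie together and apart from the controls in the first 3 genes, while in *SdhA* replicate 1 comes close to the lower control.

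Among 4 nuclear regulators, 1 fell (1.07% of all genes tested were called lower). *Dref*, a transcription factor known for binding promoters of DNA replication genes, was at 4899 and 6547 in *w1118* and at 2938, 3115, 2909 and 2814 in *de2f1b*. The mutant libraries were close to each other and below both controls. *Dref* fell by 0.94 on the log2 scale (standard error 0.16, adjusted p = 0.0281, limma), with values from −1.15 to −0.74 over 21 alternatives. The call was lost in 11 of them, including the loss of any single library (adjusted p between 0.0523 without *w1118* replicate 1 and 0.221 without *w1118* replicate 4, limma) and the replicate block (0.472). *Ets97D*, related to the mammalian regulator of respiratory genes GABP, had a log2 fold change of −0.32, *srl* one of −0.57 and *ewg* one of 0.09.

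Of 14 tested genes for the upkeep of mitochondrial DNA and RNA 0 passed the limma test, while 2 had an unadjusted p under 0.05 and were lower, against 21.6% of all genes tested in either direction. *TFAM*, which packs mitochondrial DNA, was at 2241 and 2282 in *w1118* and at 1517, 1790, 1717 and 1877 in *de2f1b* (log2 fold change −0.39, adjusted p = 0.191, limma), below the nearly equal controls in every mutant library. *Suv3* (−0.41) and *PNPase* (−0.36), a helicase and a nuclease that degrade mitochondrial RNA, did not overlap either. In this list 4 of 14 genes lay below both controls and 1 above, where this held for 16.0% and 17.4% of all genes tested. The remaining ones were *mTerf3* (−0.19), lower, and *mtTFB2* (0.27), higher. The mitochondrial RNA polymerase *PolrMT* (0.20) and the DNA polymerase subunit *PolG1* (0.56) overlapped between the groups.

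Of 8 tested assembly factors 0 were called by limma, with 1 at an unadjusted p under 0.05 (21.6% of all genes tested). *Sirup*, an assembly factor of complex II, was at 7721 and 11256 in *w1118* and at 3628, 2367, 2948 and 8349 in *de2f1b*. Replicate 4 lay between the controls and the other mutant libraries far below them (log2 fold change −1.29, adjusted p = 0.201, limma). Of 12 citric acid cycle genes 0 were called by limma, with 2 at an unadjusted p under 0.05, beside the same 21.6%. *Idh3a*, a subunit of isocitrate dehydrogenase, was at 7719 and 7923 in *w1118* and 5742, 5922, 5157 and 6315 in *de2f1b* (log2 fold change −0.44, adjusted p = 0.138, limma), while its partner *Idh3b* was at 3373 and 3612 against 4234, 4661, 3941 and 4023 (log2 fold change 0.27). Both subunits had values that did not overlap between the groups, in opposite directions, as held for 16.0% of all genes tested on the lower side and 17.4% on the higher side.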

How the data were processed

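RNA-seq of SGs was analysed in 6 libraries, 2 of *w1118* and 4 of *de2f1b*. After FastQC 0.11.8, the authors mapped read pairs with STAR 2.7.6a, counted per gene with featureCounts 1.6.0 and deposited a signal, that is each count over the DESeq2 size factor of its library. The strand setting of the counting is not given in the sources used here. The deposited table also holds the authors' mean and their own comparison (fold changes, errors and p-values), which were not used. In each library 100% of the values were whole multiples of 1 read within 0.01, so reads were recovered, and 3 reads set the detection limit.

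The 11099 genes that reached a normalized count of 10 in 2 or more libraries were tested with limma 3.58.1 (R 4.3.3, intensity trend) on log2(normalized count + 1), genotype as the only term, two-sided, with Benjamini-Hochberg adjustment and a threshold of 0.05. With 2 libraries against 4, an exact permutation test of a single gene cannot give a p under 0.0667. Alternatives were pseudocounts of 0.5 and 10, other filters and scalings, limma with robust eBayes or no trend, a replicate block, each library left out, both libraries with ring gland markers left out, and edgeR 4.0.16 and DESeq2 1.42.0 on recovered reads. The test with 1 *w1118* library left was added after seeing the data and takes its spread from the *de2f1b* libraries.

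Genes named in full were all mt: genes, members called, in each nuclear complex the largest rise and fall with a group mean of at least 100, in each whole complex the 2 highest levels per kilobase, the 5 highest paralogs that passed the filter, and pathway genes called. Other named genes were chosen after their values were seen. Members and lists were chosen with earlier results of these data known. Exon lengths, positions and overlaps come from BDGP6.54 (the labels name BDGP6). Of the pathway lists, *Ecsit*, *Twinkle* and *Nc73EF* were not matched, and *Ccdc56*, *PolG2*, *SLIRP1* and *mtTFB1* were not tested because they were listed at 0. Python 3.11.15, pandas 2.3.3 and Matplotlib 3.10.9 were used for tables and plots.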

Additional observations from a re-analysis of the deposited data

Results flagged for a closer look

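Among the 42 results that were examined over the 4 *de2f1b* libraries, 3 held a library far from the others, by Dixon's ratio of the gap to the range (on log2(normalized count + 1) for single genes, on the read totals as they are) against its 95% critical value. Chance gives such a value in about 1 of 20 groups, or 2.1 of 42. *mt:ND3* had a ratio of 0.860, with *de2f1b* replicate 4 at 24874 and the other mutant libraries between 11513 and 12825. *SdhBL* had a ratio of 0.915, with replicate 3 at 327 and the others between 10.96 and 14.86. The total of reads on genes had a ratio of 0.931, with 86202639 in replicate 4 and 56495956 to 58535649 in the others.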

How the results depend on the processing

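Over all genes tested, where 352 were called higher and 119 lower, the counts were 1088 and 556 with DESeq2, 111 and 43 without both *de2f1b* libraries that held ring gland markers, 208 and 71 without a filter on low values, and 5 and 2 with the replicate block. Counts of higher genes were 198 with edgeR and 201 under quantile normalization. Leaving out 1 library at a time gave 69 to 216 higher and 5 to 66 lower genes. No nuclear member was called in any of the 21 alternatives, and of the mt: genes 1 was called lower, with DESeq2 only. The median of the mt: genes was 0.19 to 0.96 with 1 library left out and 0.84 with the replicate block, and its difference from the nuclear median 0.21 to 1.14. The correlation of deviations between libraries of the same number was −0.32 (replicates 1) and −0.36 (replicates 4), so the numbers were not taken to pair the libraries. With only 2 controls their deviations mirror each other, so that these correlations are a weak guide. The block takes the genotype difference only from replicates 1 and 4, which both genotypes have. No member was called with or without the block, and since it called so few genes this decides nothing.

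Of the 32 members named by rule, 8 had a log2 fold change that changed sign under some alternative, and the cause was not tested. *mt:ND4L* was at −0.39 under quantile normalization and between −0.00047 and 1.25 with 1 library left out. *SdhB* was at 0.18 without both libraries with ring gland markers, 0.0057 with edgeR, 0.094 under quantile normalization, 0.12 at the same total, 0.15 at the same total of nuclear genes and 0.17 at the same total outside the top 50 genes. *UQCR-6.4* was at 0.0033 without both libraries with ring gland markers and at 0.028, 0.064 and 0.079 in the same 3 rescalings. *Sdhaf3* was at −0.086 under quantile normalization, and *UQCR-14* at 0.00071 at the same total outside the top 50 genes. With 1 library left out the ranges were −0.19 to 0.12 for *SdhB*, −0.35 to 0.11 for *UQCR-6.4*, −0.094 to 0.097 for *ND-B22*, −0.079 to 0.64 for *mt:Cyt-b* and −3.87 to 1.71 for *COX7AL2*.

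The 3 mt: genes under 1000 and the paralogs rest on few reads. The controls differed by a median of −0.79 in the mitochondrial genes, more than the genotypes did.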
